A study of Mus musculus with 2 samples.

Results

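The splicing factor genes of 4 families, Hnrnp, Srsf, Snrp and Sf3, were followed in B cells of NOD mice that carried a human AIRE transgene or lacked it. AIRE is the regulator through which the thymus expresses genes of other tissues. Members were all probe sets whose single gene symbol in the platform's table starts with Hnrnp, Srsf, Snrp, Sf3a or Sf3b. They numbered 139 of the 45037 probe sets that are not controls, and 47 of 18193 named genes: 19 Hnrnp, 10 Srsf, 9 Snrp and 9 Sf3 genes. The transgenic group was AIRE transgenic NOD mice and the other group non-transgenic mice of that inbred strain, which develops autoimmune diabetes. Both were 8 weeks old. The transgene was driven by the promoter of an MHC class II gene, and such promoters work in B cells and other cells that present antigen. Each group was 1 Affymetrix array of total RNA, pooled from 2 mice, of B220-positive cells without Thy1 or CD11c. With 1 array a group there is no test, standard error or replicate check. That number of arrays limits the precision, so every ratio describes this pair of arrays.

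Splicing removes introns from pre-messenger RNA in the spliceosome, which is assembled on each intron from small nuclear ribonucleoproteins. Snrp genes encode proteins of these particles, most of them Sm proteins that form a ring on the small nuclear RNA, and Sf3a and Sf3b genes encode the parts of the U2 particle that settle on the branch point. SR proteins, encoded by Srsf genes, bind exons and promote the use of nearby splice sites, whereas hnRNP proteins coat the transcript and often block sites. In lymphocytes, hnRNP L and its paralog hnRNP LL are known for skipping variable exons of Ptprc, the gene of CD45, whose long form in B cells is the B220 used for the sort. HNRNPL is also a known partner of AIRE.

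Intensities below are the deposited linear values after the medians of both arrays were aligned, and ratios are log2 of transgenic over non-transgenic, with values under a floor of 25.1 set to it. A gene is read by its probe set of highest mean level, and it lies above the filter if its higher value reaches 98.8, the pooled median. Among 10778 named genes above the filter the median ratio was 0.19 with an SD of 0.58, and 64.9% had a ratio above 0. That median was 0.01 on the values as deposited, 0.05 after quantile normalization and 0.03 after loess, so ratios of members are best read against it. The sorted cells had the B cell genes on both arrays (Ms4a1 at 29789 and 38866, Ptprc at 28480.4 and 35684). All 7 B cell markers on the array were lower on the transgenic one, with a median of -0.41. This lies at -0.60 from the median of all genes, and Cd79a (19609 and 46825, ratio -1.26) was at least 2-fold lower. The 5 natural killer cell markers ran from 259 to 2771 on the transgenic and from 192 to 1369 on the non-transgenic array. They summed to 4718 and 2819, with Gzma (2771 and 1369) the brightest. Of them 2, against 4.43% of all genes, were at least 2-fold higher (1 under the other scalings). Their ratios were 1.29 (Klre1), 1.02 (Gzma), 0.71 (Ncr1), 0.02 (Nkg7) and -0.06 (Prf1). Both erythroid markers lay under the floor on both arrays, and the sort's negative markers Thy1 (101 and 208) and Itgax, the gene of CD11c (804 and 670), were above the filter by their higher value. Of the 6 T cell markers above the filter Thy1 was at least 2-fold lower and Cd4 (155 and 38.4, ratio 2.01) at least 2-fold higher, with a median of -0.28. Of 5 neutrophil and monocyte markers Mpo (106 and 50.7) was 2-fold higher, though not as deposited, with Csf1r at 4090.4 and 2584 and Lyz2 at 5939 and 6172. Cd4 and Mpo passed the filter on the transgenic array only. The 5 plasma cell markers summed to 46287 and 45783, with none 2-fold apart. Jchain (-0.37) and Sdc1 (-0.08) had ratios below 0, and Mzb1 (0.30), Prdm1 (0.31) and Xbp1 (0.45) above it. The 3 other probe sets of Sdc1 above the filter ranged from -2.29 to 0.29. In such bulk samples fewer cells of a type and less RNA per cell cannot be told apart, and the part of these marker differences in the results below was not tested. The probe set of mouse Aire lay under the filter (89.7 and 86.9), and it was designed on the mouse gene, so it checks nothing about the human transgene.

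Hnrnpl was the only 1 of 45 member genes above the filter that was 2-fold apart, and it was lower on the transgenic array. None of the 45 was at least 2-fold higher, against 4.43% of all named genes above the filter, and the 1 lower gene stands against 3.19% of them. The other members lay close together and mostly a little above 0. Ratios above 0 were found in 42 of 45, against 64.9% of all genes, and ratios above the median of all genes in 34 of 45. Without the alignment 35 of 45 lay above 0 against 51.2% of all genes, after quantile normalization 38 against 54.1% and after loess 39 against 52.8%. The members' median was 0.34 with an SD of 0.30, and this median is 0.15 above that of all genes. The other 2 genes, Srsf12 and Snrpn, lay under the floor on both arrays. Members are mostly bright, and the genes they are set against reach down to the filter. With a filter at the pooled 75th percentile 41 of 44 members lay above 0, against 70.5% of all genes. Only 2.53% of all genes were then at least 2-fold higher and 1.40% lower. The SD was not compared among genes of like level.

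**Figure D1:**
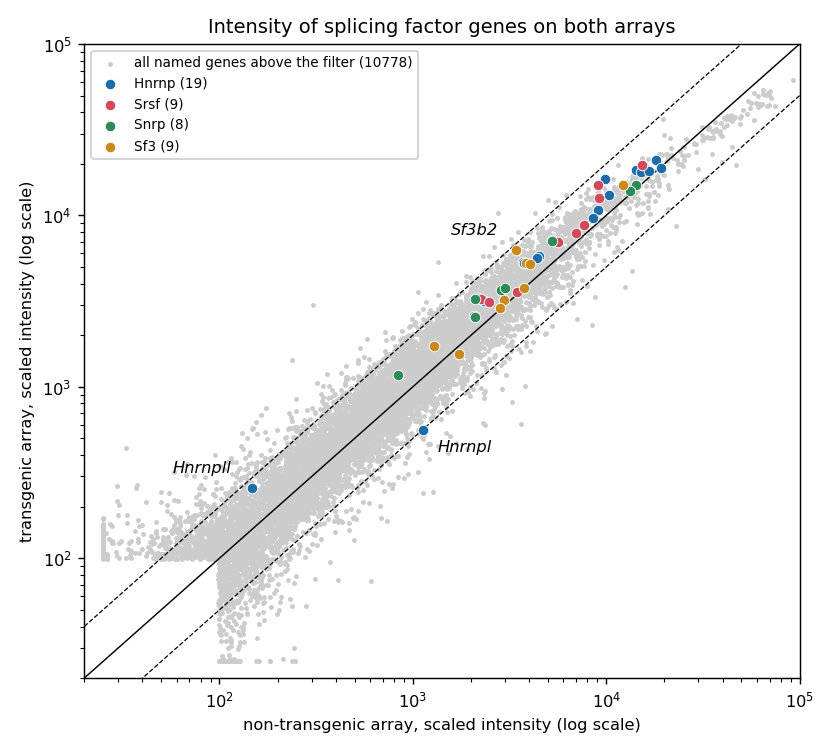
Scaled intensity on the non-transgenic (x) and transgenic (y) array, both on log scales, for 10778 named genes above the filter (grey, values under 25.1 drawn at that floor) and the 45 member genes (coloured by family). The solid line marks equal values and the dashed lines 2-fold; Hnrnpl, at 1131 and 558, lies just past the lower dashed line and the other 44 members between the dashed lines.

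By family, the median ratio was 0.35 over 19 Hnrnp genes, 0.34 over 9 Srsf genes, 0.35 over 8 Snrp genes and 0.30 over 9 Sf3 genes. These medians lay 0.16, 0.15, 0.16 and 0.11 above that of all genes. After loess, which takes out the dependence of the ratio on level, the family medians were 0.25, 0.14, 0.13 and 0.17 against 0.03 for all genes. The Snrp median lay at -0.02 from that of all genes with the mean over a gene's probe sets and at -0.0018 with the probe set of median ratio. Where a gene had an even number of probe sets, the lower of the middle pair was taken, for members and all genes alike. Under the other alternatives each family's median lay above that of all genes.

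**Figure D2:**
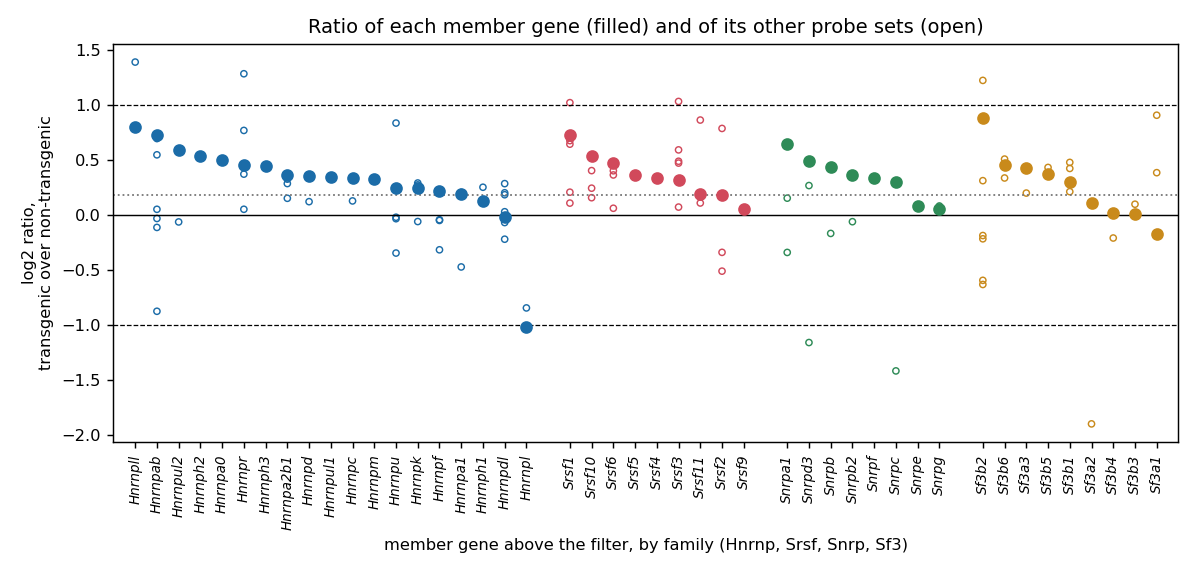
Log2 ratio of transgenic over non-transgenic (y) for the 45 member genes above the filter (x), by family. Filled points are the probe set of highest mean level, open points the gene's other probe sets above the filter; the dotted line is the median of all genes (0.19) and the dashed lines are 2-fold, which the filled point of Hnrnpl (-1.02) passes.

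Hnrnpl encodes a protein that binds CA-rich RNA. Its probe set 1424101_at stood at 558 in transgenic and 1131 in non-transgenic cells, 2.03-fold lower (log2 ratio -1.02). The other probe set, 1445594_at, was dim, at 68.4 against 123, and was also lower (-0.84). That probe set passed the filter on the non-transgenic array only, where it was high, so its direction adds little to the first. Relative to the median of all genes the ratio was -1.21. As deposited it was -1.18, after quantile normalization -1.17 and after loess -1.19, so no scaling turned its sign. The 2-fold call is close to its threshold, and with the mean of both probe sets the ratio was -0.93, under 2-fold. The next members by size had ratios above 0, Sf3b2 at 0.88, Hnrnpll at 0.80 and Srsf1 at 0.73.

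Hnrnpll, the paralog of Hnrnpl, had the highest ratio of its family. Its probe set 1425255_s_at was at 258 in transgenic and 148 in non-transgenic cells (0.80), and its other probe set, 1427144_at, at 143 against 54.6 (1.39). Both probe sets were dim, and the second passed the filter on the transgenic array only, where it was high. Ptprc, whose exons both proteins are known to act on, was at -0.33 and -0.05 by its 2 probe sets. These read the level of Ptprc and not its exon choice.

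Promoters are shown for Hnrnpl, the only member called, for Sf3b2, the highest of all members, and for Srsf1, the highest SR gene, because the last pair had ratios of the opposite sign to the first. The ratio of Sf3b2 is that of 1438637_x_at, while its probe sets above the filter ranged from -0.63 to 1.22. Each sequence is the 250 bases before the RefSeq gene start in build GRCm38.p6, on the gene's strand, and capitals mark matches to any of 8 motifs searched on both strands. The stretch of Hnrnpl is chr7:28810640-28810889 (plus strand), that of Sf3b2 chr19:5295458-5295707 (minus) and that of Srsf1 chr11:88047123-88047372 (plus). For Sf3b2 the first of 2 starts in the table was taken.
Hnrnpl: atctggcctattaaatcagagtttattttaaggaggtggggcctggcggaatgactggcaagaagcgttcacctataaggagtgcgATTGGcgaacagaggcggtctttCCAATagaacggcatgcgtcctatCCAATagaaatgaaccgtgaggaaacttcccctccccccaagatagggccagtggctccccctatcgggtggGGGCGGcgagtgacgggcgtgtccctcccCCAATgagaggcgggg
Sf3b2: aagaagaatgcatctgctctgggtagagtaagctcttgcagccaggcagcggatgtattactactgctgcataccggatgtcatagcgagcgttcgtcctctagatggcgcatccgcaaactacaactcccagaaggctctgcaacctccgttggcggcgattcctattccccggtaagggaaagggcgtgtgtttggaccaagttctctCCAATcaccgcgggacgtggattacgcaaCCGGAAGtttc
Srsf1: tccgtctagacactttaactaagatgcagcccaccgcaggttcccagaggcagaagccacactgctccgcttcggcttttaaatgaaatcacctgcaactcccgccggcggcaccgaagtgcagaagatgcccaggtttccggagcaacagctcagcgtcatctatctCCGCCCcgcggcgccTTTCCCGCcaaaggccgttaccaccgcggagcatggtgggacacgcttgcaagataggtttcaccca
In Hnrnpl the capitals are 4 CCAAT boxes (CCAAT, or ATTGG on the other strand) and 1 GC box (GGGCGG). In Sf3b2 they are 1 CCAAT box and 1 ETS motif (CCGGAAG), and in Srsf1 1 GC box and 1 E2F motif (TTTCCCGC). At least 4 CCAAT matches, a count chosen after the sequence was seen, were held by 4 of 58 member promoters (Hnrnpa1, Hnrnpc, Hnrnpl and Hnrnpr) and by 0.84% of all 32851 promoters in the table. Of these genes Hnrnpa1 (0.19), Hnrnpc (0.34) and Hnrnpr (0.45) had ratios above 0, unlike Hnrnpl.

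The member promoters as a group were richer in some of these letters. The table held 58 promoters of 42 of the 47 genes. ETS motifs occurred in 31.0% of them against 6.91% of all promoters, GC boxes in 65.5% against 32.7%, CCAAT boxes in 44.8% against 33.8%, NRF1 motifs (GCGCANGCG) in 17.2% against 5.16% and E2F motifs in 6.90% against 0.89%. The interferon-stimulated response element (GAAANNGAA) occurred in 5.17% against 7.13%, and in none of the 3 promoters printed. The cyclic AMP response element (TGACGTCA) stood in 1.72% against 1.55%, and the TATA box (TATAAA) in 8.62% against 12.4%. CG dinucleotides numbered 19 in the median member promoter and 6 in the median promoter of all. None of the motifs contains another, though matches can overlap. All promoters include those of non-coding genes, some genes have several starts, and a match is a description of the letters, not a site.

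The remaining hnRNP genes include those of the core proteins that coat nascent transcripts, none of them 2-fold apart. Hnrnpa2b1 stood at 18383 in transgenic and 14247 in non-transgenic cells (0.37), and 3 further probe sets ranged from 0.15 to 0.33. Hnrnpc, which binds uridine tracts, was at 13083 against 10329 (0.34), and Hnrnpa1, a binder of splicing silencers, at 9723 against 8500.3 (0.19). The ratio of Hnrnpa1 was thus at the median of all genes, and its further probe sets were at 0.20 and -0.47. Hnrnpa0, of the same subfamily, was at 5300.5 against 3751 (0.50).

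Proteins that bind G-rich RNA are encoded by Hnrnpf and the Hnrnph genes, none of which was 2-fold apart. Hnrnph2 was at 5384 against 3716 (0.54) and Hnrnph3 at 3168 against 2321 (0.45), each by 1 probe set. Hnrnph1 was at 18105 against 16593 (0.13) and Hnrnpf at 21067 against 18111 (0.22), while 3 more probe sets for Hnrnpf were all below 0 (-0.32 to -0.04). Against the median of all genes Hnrnph1 was at -0.06 and Hnrnpf at 0.03, and after loess at 0.11 and 0.23. Hnrnpk, which binds C-rich RNA, was at 18009 against 15188 (0.25), and its other probe sets lay between -0.06 and 0.29.

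Among hnRNPs of messenger RNA stability, Hnrnpd, which binds AU-rich elements and is also called AUF1, was at 5789 against 4518 (0.36). Its paralog Hnrnpdl was at 18964 against 19210.0 (-0.02), and all 7 of its probe sets lay between -0.22 and 0.29. The sign of Hnrnpdl was positive after loess (0.02). Hnrnpab, a relative of Hnrnpd, was at 16264 against 9837 (0.73), with 6 other probe sets from -0.87 to 0.69.

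Hnrnpu, a nuclear protein that also binds scaffold-attached DNA, was at 10749 against 9042 (0.25), with others from -0.34 to 0.84. Its relatives Hnrnpul1, at 5619 against 4409 (0.35), and Hnrnpul2, at 3307 against 2202 (0.59), also had ratios above 0, while the other probe set of Hnrnpul2 was at -0.06. Hnrnpm, a binder of GU-rich RNA, was at 2599 against 2075 (0.32). Hnrnpr was at 7185 against 5252 (0.45), and all 5 of its probe sets lay above 0 on the aligned scale. The lowest, 1452030_a_at (0.05), lay at -0.13 from the median of all genes and was lower as deposited (910.7 against 983.5). The highest, 1429232_at (1.28), was dim and passed the filter on the transgenic array only, where it was high.

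All 9 SR protein genes above the filter had ratios above 0, none past 2-fold, and 7 of 9 lay above the median of all genes. Srsf1, the prototype SR protein also known as SF2, was at 15099 in transgenic and 9114 in non-transgenic cells (0.73). Its 5 other probe sets above the filter had ratios from 0.11 to 1.02. The lowest, 1452430_s_at, lay under the median of all genes (-0.08 from it) and was lower as deposited (3152.9 against 3275.1). Srsf3, the smallest SR protein, was at 7012 against 5639 (0.31), and its other 5 ranged from 0.07 to 1.03. Of these 1438215_at lay at -0.11 from the median of all genes and was lower as deposited (1176.3 against 1252.9). Srsf2 was at 7914 against 6990.4 (0.18), but 2 of its other 3 probe sets were below 0 (-0.51 and -0.34) and the third was at 0.79.

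In 3 other SR genes with several probe sets all ratios were above 0 on the aligned scale. Srsf6 was at 12718 against 9171 (0.47) and 3 further probe sets lay between 0.06 and 0.40. Srsf10, a regulator known for its response to heat shock, was at 3259 against 2252 (0.53), with others from 0.16 to 0.40. Srsf11 was at 8801 against 7703 (0.19), and its others ranged from 0.11 to 0.86. Of the SR genes with 1 probe set, Srsf5 was at 19637 against 15303 (0.36), Srsf4 at 3130.4 against 2473 (0.34) and Srsf9 at 3599 against 3468 (0.05). The sign of Srsf9 turned as deposited, after quantile normalization and after loess (-0.11, -0.16 and -0.16). Srsf12 was at 17.3 against 15.3, under the floor.

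None of the genes of the Sm ring among the members was 2-fold apart. Snrpd1 and Snrpd2, also of that ring, were not among the members and were not read. Snrpb was at 7094 in transgenic and 5239.9 in non-transgenic cells (0.44), and its second probe set was at -0.17. Snrpd3 was at 1174 against 836 (0.49), with others at 0.27 and -1.16. Snrpf was at 3766 against 2984 (0.34). Snrpe, at 15015 against 14219 (0.08), and Snrpg, at 13853 against 13340.1 (0.05, other probe set 0.08), were close to equal and below the median of all genes, and both signs turned on the values as deposited. Snrpn, a tissue-restricted relative of Snrpb, had 1 probe set of its own, under the floor on both arrays (6.69 and 13.2).

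Particle-specific proteins followed. Snrpc, a protein of the U1 particle that helps it hold the 5′ splice site, was at 2571 against 2088 (0.30), while its dim other probe set was at 48.0 against 128 (-1.41). Snrpa1, the U2 A′ protein, was the highest of its family at 3262 against 2088 (0.64), with others at 0.15 and -0.34. Snrpb2, the U2 B″ protein that binds with it, was at 3685 against 2860.1 (0.37), with 1 other probe set above the filter at -0.06.

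Of the U2 branch point complex, Sf3b1, the large subunit that holds the branch point helix, was at 15021 in transgenic and 12222 in non-transgenic cells (0.30), and 3 further probe sets had the same sign (0.21 to 0.48). Sf3b6, which contacts the branch point adenosine, was at 5292 against 3857 (0.46), and Sf3b5 at 5215 against 4024 (0.37). Sf3b6 had 2 further probe sets above the filter (0.34 and 0.51) and Sf3b5 had 1 (0.43). Sf3b3 was at 3788 against 3771 (0.01) and Sf3b4 at 2865 against 2835 (0.02). These were nearly equal, and both signs turned under each of the 3 other scalings.

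Sf3b2, at 6326 against 3426 (0.88), was the highest member gene, yet it was not read uniformly. Of its 6 other probe sets, 2 were above 0 (0.31 and 1.22) and 4 below it (-0.63 to -0.19). In the Sf3a subcomplex, Sf3a3 was at 1726 against 1281 (0.43, other probe set 0.20). Sf3a1 was at 1544 against 1738 (-0.17), with others at 0.39 and 0.91, and Sf3a2 was at 3212 against 2968 (0.11). The sign of Sf3a2 turned as deposited (-0.05), after quantile normalization (-0.09) and after loess (-0.11). In all, 8 of 45 members changed sign in at least 1 of these scalings. Of these Hnrnph1, Snrpe and Snrpg did so only on the values as deposited, where every ratio above the floor is moved by the same constant (-0.16).

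Probe sets of 1 gene were compared on the same pair of arrays, so their disagreement, like every ratio here, describes that pair. Of the 47 genes, 35 had 2 or more probe sets above the filter. In 9 of these (25.7%, exact Clopper-Pearson 95% interval 12.5% to 43.3%) the highest and lowest ratio lay over 2-fold apart, against 22.3% of all 5172 such genes. That interval treats genes as independent draws and does not measure the spread between mice or arrays. Signs differed within 17 of the 35, against 49.7% of all. No member had 1 probe set called higher and another called lower by 2-fold, against 0.445% of all. Counted by pairs, 20 of 191 pairs of probe sets of 1 member gene lay over 2-fold apart (10.5%), against 13.1% of 15881 pairs over all genes. The members' shares were thus near those of the array.

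**Figure D3:**
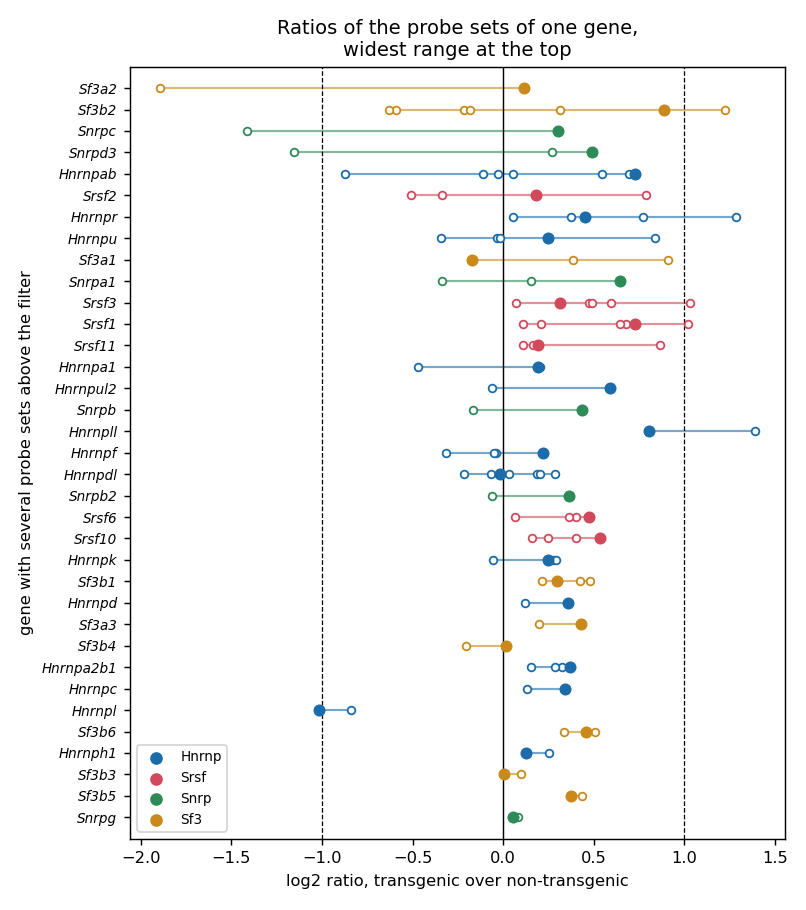
Log2 ratio of transgenic over non-transgenic (x) for each probe set above the filter of the 35 member genes with 2 or more (y), ordered by range. Filled points are the probe set of highest mean level and dashed lines mark 2-fold; Sf3a2 has the widest range (-1.90 to 0.11) and Snrpg the narrowest (0.05 to 0.08).

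The widest range belonged to Sf3a2, whose probe set 1455546_s_at was nearly equal (0.11) while 1450576_a_at stood at 349 in transgenic against 1297 in non-transgenic cells (-1.90). Both values of the second lay above the filter. Sf3b2 followed with a range of 1.85 over 7 probe sets, then Snrpc with 1.71 and Snrpd3 with 1.65. In Snrpd3 the low probe set, 1422885_at, was dim at 91.8 against 205. Hnrnpab (1.60), Srsf2 (1.30), Hnrnpr (1.23), Hnrnpu (1.18) and Sf3a1 (1.08) completed the 9. In 5 of the 9 (Hnrnpab, Hnrnpr, Sf3a1, Snrpc and Snrpd3) a probe set with 1 value under the filter was among those compared. With both values required above the filter, 4 of 32 member genes (12.5%) and 15.0% of all genes had probe sets over 2-fold apart.

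The number of probe sets moved with disagreement. Members had 3.43 probe sets above the filter on average among genes with several, against 2.77 for all genes. Over all genes the share with ratios over 2-fold apart was 13.4% with 2 probe sets, 26.1% with 3, 36.8% with 4 and 51.4% with 5 or more. For members it was 2 of 15, 2 of 5, 1 of 8 and 4 of 7. The counts are small, and the shares lay above and below those of all genes in different classes.

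**Figure D4:**
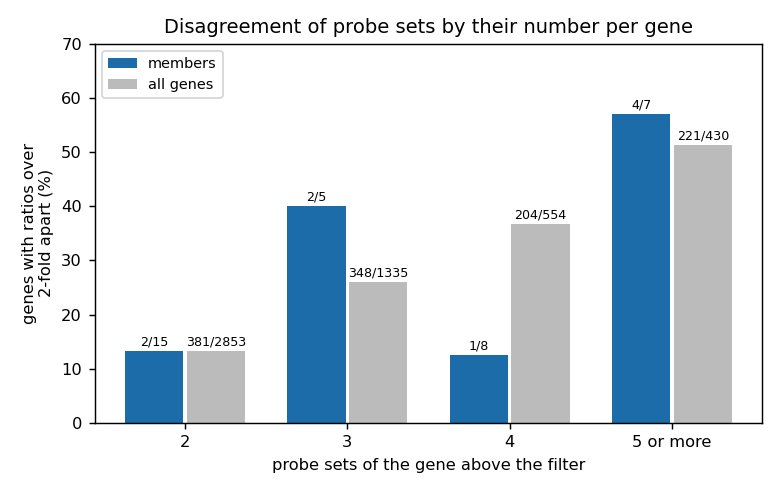
Percent of genes whose probe sets above the filter had ratios over 2-fold apart (y) by the number of such probe sets (x), for members (blue) and all named genes (grey), with counts over the bars. The share over all genes goes from 13.4% with 2 probe sets to 51.4% with 5 or more.

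Counted singly, 130 of the 139 member probe sets lay above the filter. Of these 5 were higher by 2-fold or more, against 4.52% of all probe sets with 1 symbol above the filter, and 4 lower, against 4.02%. The 9 belonged to 9 different genes, and 4 of them (in Hnrnpll, Hnrnpr, Snrpc and Snrpd3) passed the filter only on the array where they were high. The higher ones were in Hnrnpll (1.39), Hnrnpr (1.28), Sf3b2 (1.22), Srsf3 (1.03) and Srsf1 (1.02), and the lower ones in Sf3a2, Snrpc, Snrpd3 and Hnrnpl. Only that of Hnrnpl was the probe set of highest mean level of its gene. The other probe sets of a member gene had lower ratios than the probe set of highest level in 56 of 85 cases, with a median difference of -0.13, against 5728 of 9179 over all genes with a median of -0.17. In the Snrp family 7 of 8 were lower, and the median difference over all 8 was -0.55.

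Other genes of splicing were read from 7 fixed lists, of which 110 genes lay above the filter. Of these 3 were higher by 2-fold or more and 1 lower, against 4.43% and 3.19% of all genes, and their median ratio was 0.26. SR-related proteins and SR kinases had a median of 0.38 over 18 genes, 17 of them above 0 (14 on the values as deposited). In this list Pnn, a nuclear speckle protein, was at 7957 in transgenic and 3518 in non-transgenic cells (1.18), with its other 2 probe sets at 0.02 to 0.69. Regulators of splice site choice had a median of 0.33 over 15 genes, with Celf1, a binder of GU-rich RNA, at 12032 against 5446 (1.14), although the 4 other probe sets ranged from -0.56 to 0.61.

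The lists of particle proteins and late factors lay at the median of all genes or nearby. Particle proteins with symbols outside the member families, mainly of the U1, U4, U5 and U6 particles, had a median of 0.18 over 24 genes. In that list Snrnp40, of the U5 particle, was at 2991 against 1403 (1.09), and its second probe set was at 0.03. After quantile normalization none of Pnn, Celf1 and Snrnp40 reached 2-fold. Branch point and 3′ splice site factors had a median of 0.26 over 14 genes, none 2-fold apart, with Sf1, the branch point binding protein, at 24896 against 21687 (0.20, its 4 other probe sets from -1.37 to 1.33) and Dnajc8 at 6081 against 4703 (0.37). Catalytic step and release factors had 0.14 over 20 genes, none 2-fold apart, with the helicase gene Dhx15 at 10565 against 7502 (0.49) and Prpf19 at 9639 against 5539.8 (0.80, its 3 other probe sets from -0.97 to 0.65). hnRNP proteins under other symbols had a median of 0.16 over 16 genes, 9 above 0 and none 2-fold apart. Against all genes the medians of these last lists, 0.16 and 0.14, lay at -0.02 and -0.05, and on the values as deposited at -0.02 and -0.04. There Matr3, a nuclear matrix RNA-binding protein, was at 12840 against 8563 (0.58) and Pcbp2, a C-rich RNA binder, at 9608 against 10439 (-0.12). Of the exon junction complex 3 genes of 8 listed lay above the filter. Pym1 was at the floor on the transgenic array against 246 on the other, at least 9.82-fold lower by 1 probe set. It passed the filter on the non-transgenic array only, where it was high. The others above the filter were Rbm8a (0.69) and Casc3 (-0.47).

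**Figure D5:**
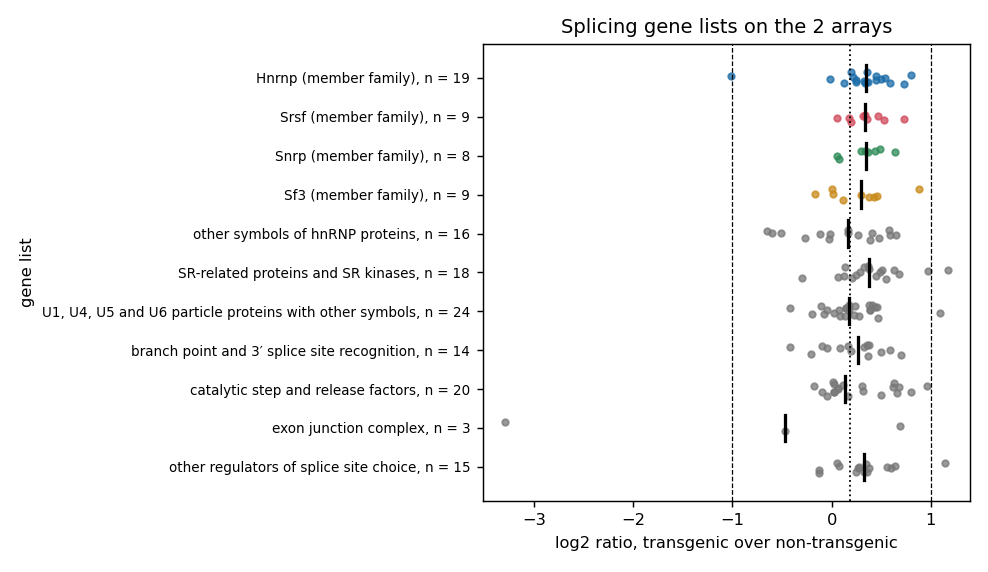
Log2 ratio of transgenic over non-transgenic (x) for genes above the filter in the 4 member families (coloured) and 7 further splicing lists (grey), 1 point per gene, spread vertically for legibility. Black bars are medians, the dotted line is the median of all genes (0.19) and dashed lines mark 2-fold; the point at -3.30 is Pym1, a lower bound in size.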

How the data were processed

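The deposited values are linear intensities per probe set, and what software, background step and scaling the authors used is not given in the sources used here. Without its highest and lowest 2%, each array's mean was 500.0 as deposited. Each array was brought to the median of both (multiplied by 1.06 and 0.947). The 25th percentile of all values served as floor before log2. The platform table gave 1 symbol for 34945 probe sets, several for 932 and none for 9160. Entrez identifiers of 34741 were found among RefSeq genes of GRCm38.p6, and 0 were renamed. Called means at least 2-fold. Every member gene is named. Of each other splicing list, up to 4 genes past 2-fold are named, or the 2 brightest, and markers were named partly after their values were seen. Members and lists were chosen with earlier results of these data known. Steps were tested on simulated arrays. Versions were matplotlib 3.10.9, statsmodels 0.14.6, scipy 1.17.1, pandas 2.3.3, numpy 2.4.6 and Python 3.11.15.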

Additional observations from a re-analysis of the deposited data

How the results depend on the processing

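No paired analysis was possible because each group has 1 array, and no replicate could be left out. The ratio of Hnrnpl kept its sign under all 12 alternatives, from -1.21 to -0.93. It stayed at -1.02 with another filter, another floor, or no _s_at, _x_at or _a_at probe sets. It also did so with the probe set of median ratio, which for Hnrnpl was the lower of its 2. These alternatives kept the same probe set and values for Hnrnpl, so they could not move its ratio. The count of members at least 2-fold higher was 0 in the main setting and under 10 of 13 alternatives. It was 1 with the mean ratio of a gene's probe sets (3.92% of all genes) and 6 of 45 at 1.5-fold (17.4%). Without _s_at, _x_at and _a_at probe sets it was 1 of 38 (4.35%). Hnrnpll was the 1 gene both with the mean ratio and without these probe sets. The count at least 2-fold lower was 1, except 0 with the mean ratio (3.47% of all genes) and 3 of 45 by the median probe set (Sf3a2, Snrpc and Hnrnpl; 4.84%). Each of these 3 genes had 2 probe sets above the filter. The lower of the 2 was taken as the median, so their calls rest on the lower ratio alone. The distance of the family median from that of all genes ranged from 0.11 to 0.32 for Hnrnp, 0.10 to 0.30 for Srsf, -0.02 to 0.31 for Snrp and 0.06 to 0.27 for Sf3. The Snrp distance was below 0 with the mean ratio (-0.023) and by the median probe set (-0.0018). The share of genes with probe sets over 2-fold apart was 25.7%, but 10.3% with a filter at the 75th percentile, against 8.76% of all genes, and 48.6% at 1.5-fold, against 49.7%. The share of members above the median of all genes, 75.6%, ranged from 64.4% to 85.1% under 9 alternatives added after the data were seen. The causes of these shifts were not tested. Dim probe sets, near the floor, limit the reading of single probe sets.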

Other observations

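A further 16 probe sets list a symbol of these families among several and were left unnamed. Of the 12 above the filter, none was higher by 2-fold, against 4.52% of probe sets with 1 symbol, 1 was lower by more (-1.84), against 4.02%, and the median ratio was 0.24.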
